A study of Mus musculus with 24 samples.

Results

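The gamma chain of the T cell receptor is assembled from a V and a J segment, and in the mouse the V segments Trgv7, Trgv4, Trgv6 and Trgv5 lie in a cassette with a single J segment, Trgj1, and its constant region Trgc1. These 5 segments, of the 10 V and J segments listed in the Tcrg tables and of 205 segments listed in any table of the series, were taken by name, as the rows TRGV4, TRGV5, TRGV6 and TRGV7 and the column TRGJ1 of the 6 Tcrg libraries. Total RNA of thymocytes from mice on a C57BL/6 background, aged 4 to 12 weeks, had been amplified by 5′ RACE (extension of cDNA to the transcript's 5′ end, which needs no V primer) with a primer in the constant region of the chain. The groups were 3 libraries from wild-type mice and 3 from mice of genotype Satb1-/-, which lack the chromatin organiser Satb1 and which the series design calls a conditional knockout. The labels name neither a Cre driver nor the cells in which the gene was lost, and they give no treatment. Replicates are not said to be separate mice, so the spread and p-values below measure the spread between these libraries. The tables list receptor segments only, so the cell type could not be checked against marker genes.

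As background, the 4 V segments of the cassette are used by gamma delta T cells that leave the thymus at different stages of life. Trgv5 is rearranged in the earliest fetal wave and is the receptor segment of the dendritic epidermal T cells of the skin. Trgv6 follows in the fetus and is used by interleukin-17-producing cells of the uterus, lung and other mucosa. Trgv4 is rearranged from late fetal life into the adult and is used by cells of lymph nodes and spleen, and Trgv7 is used mostly by intraepithelial lymphocytes of the gut. Outside the cassette, Trgv2 is joined to Trgj2, and Trgv1 to Trgj4. Names follow the scheme in which each Trgv number equals the V gamma number of Heilig and Tonegawa.

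All 11 gamma V and J segments looked up by name were found in GENCODE M21 (mouse genome build GRCm38, chromosome 13). The cassette lies on the plus strand in the order Trgv7 (chr13:19178024-19178492), Trgv4 (chr13:19184974-19185506), Trgv6 (chr13:19190356-19190929), Trgv5 (chr13:19192278-19192725) and Trgj1 (chr13:19210343-19210402), each annotated as a T cell receptor V or J gene. Trgv5 is the V segment nearest to Trgj1, with a gap of 17.6 kb, and Trgv7 the farthest, with a gap of 31.9 kb. Trgj2 lies 100.8 kb beyond Trgj1 on the minus strand and Trgv2 126.2 kb beyond it, also on the minus strand. Trgv1 and Trgj4 lie 129.6 kb and 131.8 kb beyond Trgj1 on the plus strand.

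**Figure D1:**
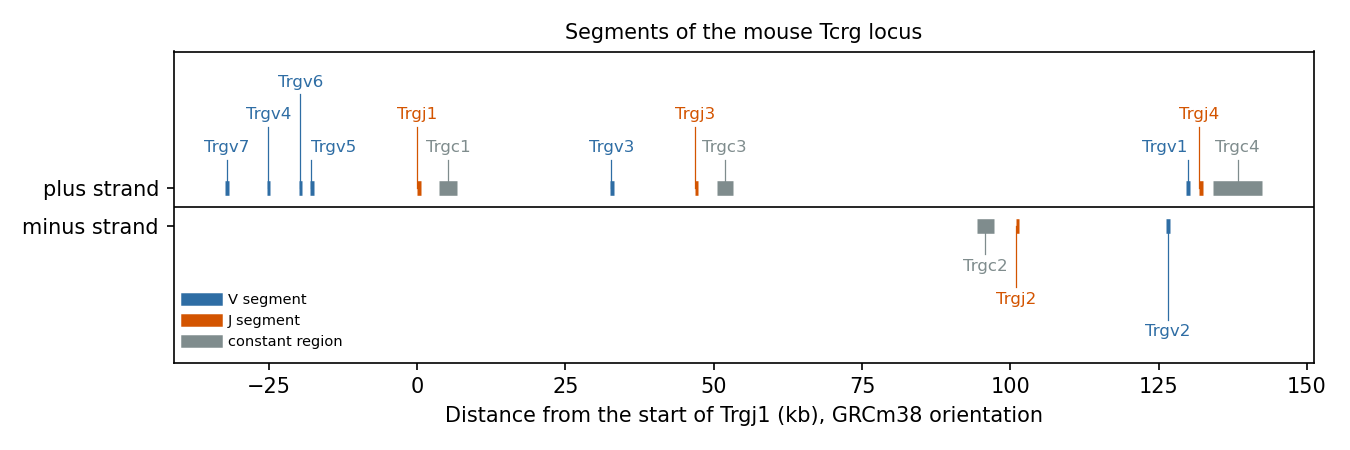
Map of the mouse Tcrg locus, with distance from the start of Trgj1 in kb on the x axis and the strand on the y axis (GENCODE M21; segments under 0.6 kb are drawn 0.6 kb wide). The 4 V segments Trgv7, Trgv4, Trgv6 and Trgv5 lie on the same side of Trgj1, between 17.6 and 31.9 kb from it, while Trgv2 and Trgj2 lie more than 100 kb beyond it on the minus strand.

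The J segments are shown first, since the report turns on how V segments divided between Trgj1 and the other J segments. Sequences are those of GENCODE M21, 5′ to 3′ in the direction of transcription, with capitals at the bases where Trgj1 and Trgj2 differ.
Trgj1: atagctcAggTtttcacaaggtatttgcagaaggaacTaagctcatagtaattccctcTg
Trgj2: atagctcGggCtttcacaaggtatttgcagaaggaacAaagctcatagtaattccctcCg
Trgj4: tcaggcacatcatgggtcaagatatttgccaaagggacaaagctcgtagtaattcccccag
Trgj1 and Trgj2 are identical at 56 of 60 bases, and, counted from the 5′ end of Trgj1, the 4 differences are A8G, T11C, T38A and T59C. The longest run they share is 26 bases. Trgj4 is more distant, with 44 identical bases of 55 aligned to Trgj1. Trgj3, which matches Trgj1 at 54 of 60 bases, is not listed among the deposited Tcrg values. Whether reads of it were assigned to another J segment is not given in the sources used here. How the authors' segment caller separated Trgj1 from Trgj2 is not given in the sources used here, so the split between these 2 segments is uncertain to the extent that such reads were confused.

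The V segments of the cassette are far less alike. The part that can enter the junction runs from the codon of the conserved cysteine to the end of the segment. Below are the last 30 bases of each, with that codon in capitals.
Trgv7: tgctctgtactacTGTgcctcctgggctgg
Trgv4: agctatctactacTGTtcctacggctaaag
Trgv6: cgggaacttattacTGTgcatgctgggata
Trgv5: agccacgtactacTGTgcctgctgggatct
Over the 16 bases from the cysteine codon that both have, Trgv5 and Trgv6 differed at C6A and C16A, counted from the first base of that codon in Trgv5. Over their whole transcripts Trgv5 and Trgv6 were identical at 67.2% of aligned bases. Trgv4 was identical to Trgv2 at 70.4% and to Trgv5 at 68.3% of aligned bases, whereas Trgv1 and Trgv2, outside the cassette, were identical at 95.2%. Shares of Trgv1 and Trgv2 are uncertain where reads of such near-identical segments cannot be told apart.

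The deposited values are percentages of a Tcrg library's V–J assignments, the cells of each table summing to 100. No counts are given, so the depth is taken as unknown and no counting intervals were computed. The smallest value above 0 was 0.629%, 0.885% and 0.990% in wild-type replicates 1, 2 and 3 and 0.225%, 0.730% and 0.312% in knockout replicates 1, 2 and 3. In each of the 6 libraries 100% of the values above 0 were whole multiples of that smallest value (within 0.01 of a whole number), so the values move in steps of this size, and the rarer segments stand only a few steps above 0. What a step counts (a read, a molecule or a clonotype) is not given in the sources used here. A segment listed at 0 in a coarse library may be present below that value. The 2 libraries numbered 1 stood apart from the other 4. Joins of a cassette V to another J, or of TRGJ1 to another V, held 2.52% of wild-type replicate 1 and 1.80% of knockout replicate 1, against 11.9% to 26.5% of the other 4 libraries. The main differences in percentage points that rest on those joins are therefore also given without the libraries numbered 1, an alternative chosen after the data were seen.

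TRGV4 held most of the V–J assignments of the cassette's V segments in every library. None of the 4 V segments passed the limma test between wild-type and Satb1 knockout libraries, TRGV4 included. Its share of the Tcrg library was 15.7%, 16.8% and 11.9% in wild-type replicates 1, 2 and 3 and 21.8%, 16.8% and 20.9% in knockout replicates 1, 2 and 3. Knockout replicates 1 and 3 lay above every wild-type library, but knockout replicate 2 (16.79%) lay just below wild-type replicate 2 (16.81%), so the groups overlapped. The means were 14.8% ± 2.59 (SD, n = 3) in wild type and 19.8% ± 2.67 (SD, n = 3) in the knockout, with a log2 fold change of 0.42 ± 0.19 (SE) on the log2(percent + 0.225) scale and a limma Benjamini-Hochberg adjusted p of 0.533 (unadjusted 0.0808). In bulk RNA a difference in the number of cells that use a segment cannot be told apart from a difference in transcript per cell.

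TRGV6, the segment that follows Trgv5 in the fetus, was listed above 0 in 5 of 6 libraries. It held 1.26%, 0.885% and 0% of wild-type replicates 1, 2 and 3, and 1.57%, 0.730% and 2.49% of knockout replicates 1, 2 and 3. The highest value was thus in knockout replicate 3 and the lowest in wild-type replicate 3, with the groups overlapping in between. Its means were 0.714% ± 0.646 and 1.60% ± 0.881 (SD, n = 3 each), a difference within the spread of the libraries (limma log2 fold change 1.22 ± 0.88, SE, adjusted p = 0.533).

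TRGV7, the segment of gut lymphocytes, was listed above 0 in 4 of 6 libraries. Its shares were 1.89%, 1.77% and 0% in wild-type replicates 1, 2 and 3 and 0.225%, 0% and 1.25% in knockout replicates 1, 2 and 3, where 0.225% is the smallest value that knockout replicate 1 lists. The means were 1.22% ± 1.06 in wild type and 0.490% ± 0.664 in the knockout (SD, n = 3 each), and the ranges overlapped from 0 upward (limma log2 fold change -0.89 ± 1.22, SE, adjusted p = 0.877).

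TRGV5, the segment of the skin's epidermal T cells, was listed in 2 of 6 libraries, at 2.97% in wild-type replicate 3 and at 0.899% in knockout replicate 1. The other 4 libraries listed it at 0. Wild-type replicate 3, the library with the highest TRGV5 share, was also the only wild-type library in which TRGV6 and TRGV7 were at 0. It is the coarsest library, with a smallest value of 0.990%, so TRGV6 and TRGV7 at 0 there do not show absence. For TRGV5 the limma log2 fold change was -0.50 ± 1.38 (SE, adjusted p = 0.987), a value set by these 2 libraries; without wild-type replicate 3 it was 0.77.

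**Figure D2:**
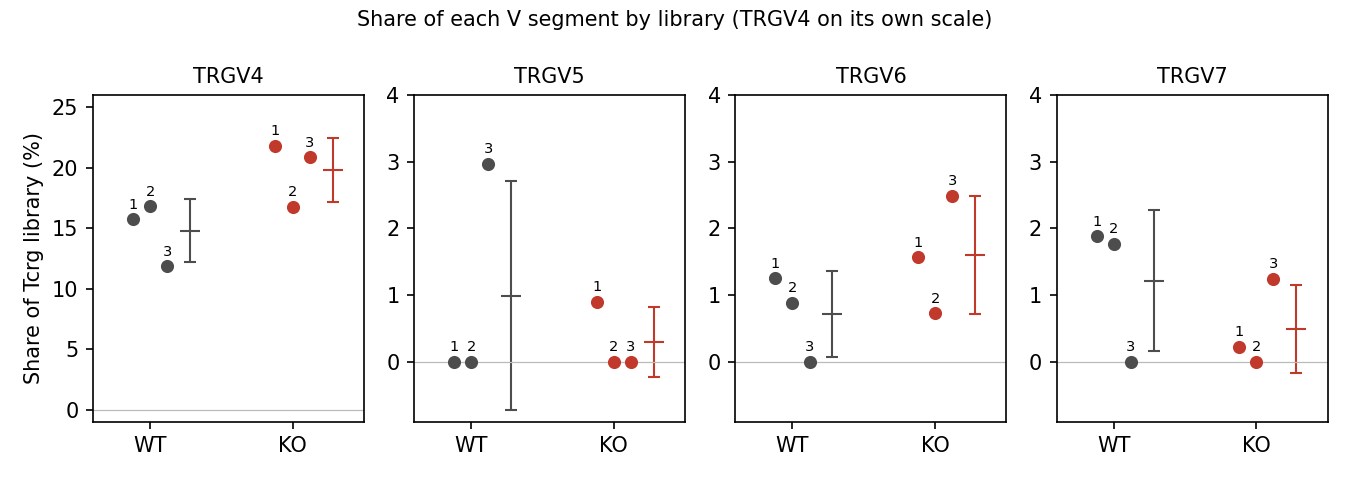
Share of the Tcrg library (%) held by TRGV4, TRGV5, TRGV6 and TRGV7 in wild-type (WT, grey) and Satb1 knockout (KO, red) libraries; each point is a library with its replicate number, and the bar beside it gives the mean ± SD of 3 libraries. TRGV4 lies between 11.9% and 21.8%, and the other 3 segments lie between 0% and 2.97%, with overlapping groups in every panel.

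Of the 7 Tcrg V segments tested with limma, 0 were called at an adjusted p under 0.05 (0%), and 0 had an unadjusted p under 0.05, so 0 of the 4 cassette segments were called. The median log2 fold change over the 7 was 0.00. In 0 of the 4 members did the groups fail to overlap, against 1 of all 7 V segments (14.3%), which was TRGV2 at 65.6% ± 1.27 in wild type and 60.9% ± 1.09 in the knockout (limma adjusted p = 0.533). Among the segments outside the cassette (TRGV1, TRGV2, TRGV3, TRGJ2 and TRGJ4) 0 of 5 were called in either direction.

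Together TRGV4 to TRGV7 held 18.9%, 19.5% and 14.9% of wild-type replicates 1, 2 and 3 and 24.5%, 17.5% and 24.6% of knockout replicates 1, 2 and 3. Knockout replicates 1 and 3 were again the highest and knockout replicate 2 lay within the wild-type range. The means of 17.7% ± 2.51 and 22.2% ± 4.06 (SD, n = 3 each) did not differ beyond that spread (exact two-sided permutation p = 0.3, Benjamini-Hochberg adjusted p = 0.927 over the 17 values tested; 3 against 3 libraries cannot give a p under 0.1).

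Within this total TRGV4 held between 80.0% and 95.8%. In wild-type replicates 1, 2 and 3 its part of the cassette was 83.3%, 86.4% and 80.0%, and in knockout replicates 1, 2 and 3 it was 89.0%, 95.8% and 84.8%. Only knockout replicate 3 fell within the wild-type range (means 83.2% ± 3.18 and 89.9% ± 5.56, SD, n = 3 each, exact permutation p = 0.2, adjusted p = 0.927). TRGV4 exceeded each of the other 3 segments in 6 of 6 libraries. The order among those 3 was not steady: TRGV6 was above TRGV7 in 3 libraries and below it in 2, and TRGV5 was above TRGV6 in 1. The segments of the fetal waves, TRGV5 and TRGV6, together made up 10.4% ± 8.38 of the cassette in wild type and 8.13% ± 3.43 in the knockout (exact permutation p = 0.8, adjusted p = 1), and without wild-type replicate 3 the difference turned to 2.52 percentage points.

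The cassette V segments were joined mainly to TRGJ1, the J segment of their own cassette. Of TRGV4, 96.0%, 78.9% and 91.7% was joined to TRGJ1 in wild-type replicates 1, 2 and 3, and 95.9%, 82.6% and 70.1% in knockout replicates 1, 2 and 3. Both libraries numbered 1 were the highest of their genotype and had a knockout minus wild-type difference of -0.124 percentage points, while the other 4 spread over more than 20 points. The means, 88.9% ± 8.86 in wild type and 82.9% ± 12.9 in the knockout (SD, n = 3 each), did not differ beyond that spread (exact permutation p = 0.6, adjusted p = 0.927). The difference of -5.99 percentage points became 0.371 without knockout replicate 3 and -8.93 without the libraries numbered 1.

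In the 4 libraries not numbered 1, most of the remaining TRGV4 was joined to TRGJ2, whose sequence differs from Trgj1 at the 4 bases shown above. This part was 0%, 15.8% and 8.33% in wild-type replicates 1, 2 and 3 and 2.06%, 17.4% and 26.9% in knockout replicates 1, 2 and 3. The libraries numbered 1 were again the lowest in each genotype. Joins of TRGV4 to TRGJ4 made up between 0% and 5.26% of it. As shares of the library, TRGV4 with TRGJ2 averaged 1.21% ± 1.34 in wild type against 2.99% ± 2.58 in the knockout (limma log2 fold change 1.33 ± 1.20, SE, adjusted p = 0.898).

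The rarer V segments of the cassette were also joined mainly to TRGJ1 in the libraries that listed them, except TRGV6 in knockout replicate 3. TRGV6 was joined to TRGJ1 alone in 4 of its 5 libraries, and in knockout replicate 3 it was divided equally, 50% to TRGJ1 and 50% to TRGJ2. TRGV7 was joined to TRGJ1 alone in 3 of its 4 libraries, and in knockout replicate 3 to TRGJ1 for 75.0% and to TRGJ4 for 25%, the latter a pair at that library's smallest value of 0.312%. TRGV5 was joined to TRGJ1 alone in knockout replicate 1, and for 66.7% in wild-type replicate 3, where its pair with TRGJ2 stood at the smallest value of 0.990%. TRGV6 stood at the library's smallest value in wild-type replicate 2 (0.885%) and knockout replicate 2 (0.730%), as did TRGV7 in knockout replicate 1 (0.225%). A share of that size can be joined to a single J only, so the 100% there was fixed in advance. Libraries that list a V segment at 0 have no fraction joined to TRGJ1 and were left out. This leaves 2 against 3 libraries for TRGV6, 2 against 2 for TRGV7 and no test for TRGV5. For TRGV6 and TRGV7 every fraction except that of knockout replicate 3 was 100%. With such ties the exact permutation test (p = 1 for both) could not separate the genotypes, and nothing is concluded from it.

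**Figure D3:**
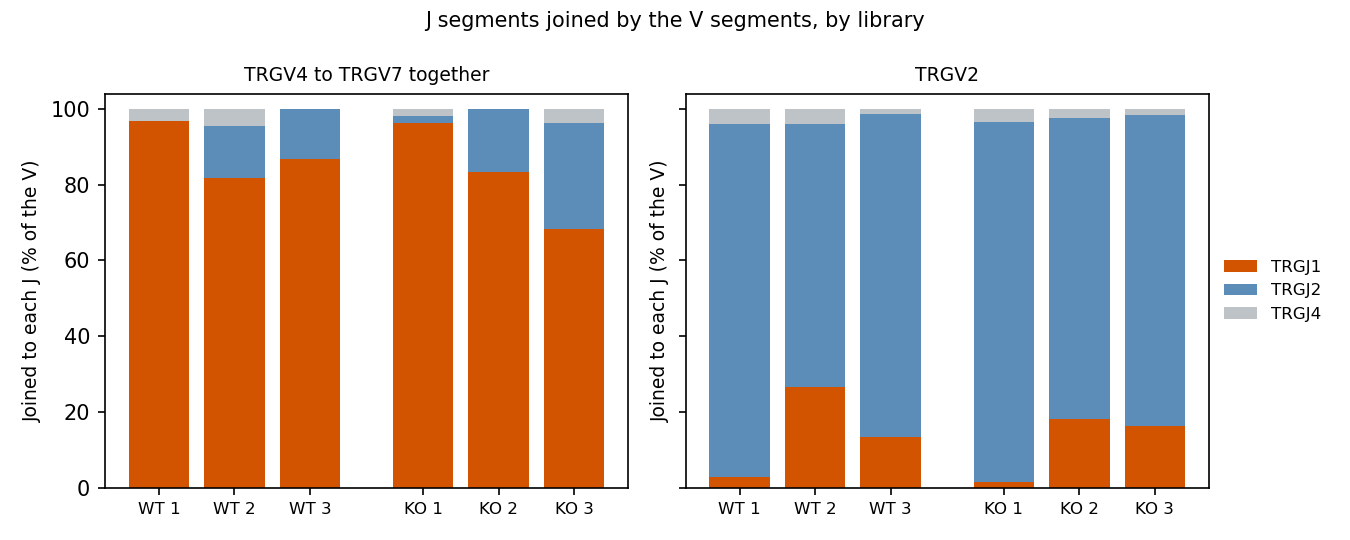
Percent of TRGV4 to TRGV7 together (left) and of TRGV2 (right) joined to TRGJ1, TRGJ2 and TRGJ4 in each library (WT wild type, KO Satb1 knockout, numbers are replicates; each bar adds up to 100%). WT 1 and KO 1 have the largest TRGJ1 part on the left, 96.7% and 96.3%, and the smallest TRGJ1 part on the right, 2.94% and 1.45%.

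For the 4 V segments together, 96.7%, 81.8% and 86.7% was joined to TRGJ1 in wild-type replicates 1, 2 and 3 and 96.3%, 83.3% and 68.4% in knockout replicates 1, 2 and 3. Knockout replicate 3 was the lowest library and the other knockout libraries lay within the wild-type range (means 88.4% ± 7.57 and 82.7% ± 14.0, SD, n = 3 each, exact permutation p = 0.6, adjusted p = 0.927). Without knockout replicate 3 the difference of -5.71 percentage points became 1.45, so the direction rested on that library, and without the libraries numbered 1 it was -8.40. Cassette V segments with other J segments held 2.05% ± 1.46 of the library in wild type and 3.87% ± 3.54 in knockout. The exact permutation p was 0.6 (adjusted p = 0.927), with 7.79% in knockout replicate 3. The difference was -0.140 percentage points without that library and 2.59 without the libraries numbered 1.

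Set against what the V and J shares alone would give, TRGV4 with TRGJ1 was between 2.03 and 4.77 times the product of its V and J shares in the 6 libraries, with a median of 3.49. TRGV4 with TRGJ2 lay between 0 and 0.447 times its product. The pair of TRGV1 with TRGJ4, the corresponding pair outside the cassette, lay between 4.04 and 5.82 times its product, and TRGV2 with TRGJ2 between 1.32 and 1.53 times, TRGV2 making up most of the library. These ratios come from the same tables as the shares and were not tested.

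TRGJ1, the J segment of the cassette, was not called between the genotypes. It was 20.1%, 38.9% and 22.8% of wild-type replicates 1, 2 and 3 and 24.5%, 27.0% and 28.3% of knockout replicates 1, 2 and 3. All 3 knockout libraries lay between the wild-type values, and wild-type replicate 2 was far above the rest. The means were 27.3% ± 10.2 and 26.6% ± 1.96 (SD, n = 3 each), with a limma log2 fold change of 0.02 ± 0.26 (SE, adjusted p = 0.930). Of the 3 J segments tested 0 were called (0%), and 0 had an unadjusted p under 0.05. The difference in TRGJ1 share, -0.662 percentage points, had no steady sign: it was 5.17 without wild-type replicate 2, 0.399 without knockout replicate 1 and -3.18 without both libraries numbered 1. The log2 fold change likewise turned negative without wild-type replicate 1 (-0.16), wild-type replicate 3 (-0.08) or knockout replicate 3 (-0.02).

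The V partner of TRGJ1 with the highest mean part was TRGV4 in both genotypes, followed by TRGV2, a segment from outside the cassette. TRGV4 held 75.0%, 34.1% and 47.8% of TRGJ1 in wild-type replicates 1, 2 and 3 and 85.3%, 51.4% and 51.6% in knockout replicates 1, 2 and 3. In each genotype the library numbered 1 was the highest, and the groups overlapped (means 52.3% ± 20.8 and 62.8% ± 19.5, SD, n = 3 each, exact permutation p = 0.5, adjusted p = 0.927). The difference of 10.5 percentage points turned to -0.806 without knockout replicate 1. It was 21.8 without wild-type replicate 1, 1.36 without wild-type replicate 2 and 10.5 without both libraries numbered 1. Taken between libraries of equal number, it was 10.3, 17.3 and 3.82 for numbers 1, 2 and 3. TRGV2 held 9.38%, 45.5% and 39.1% of TRGJ1 in the wild-type libraries and 3.67%, 40.5% and 35.2% in the knockout libraries. It was above TRGV4 in wild-type replicate 2 alone. In the libraries numbered 1 it was not the second partner by itself: it was level with TRGV7 in wild-type replicate 1 (9.38% each), and in knockout replicate 1 it was below TRGV6 (6.42%) and level with TRGV5 (3.67% each).

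**Figure D4:**
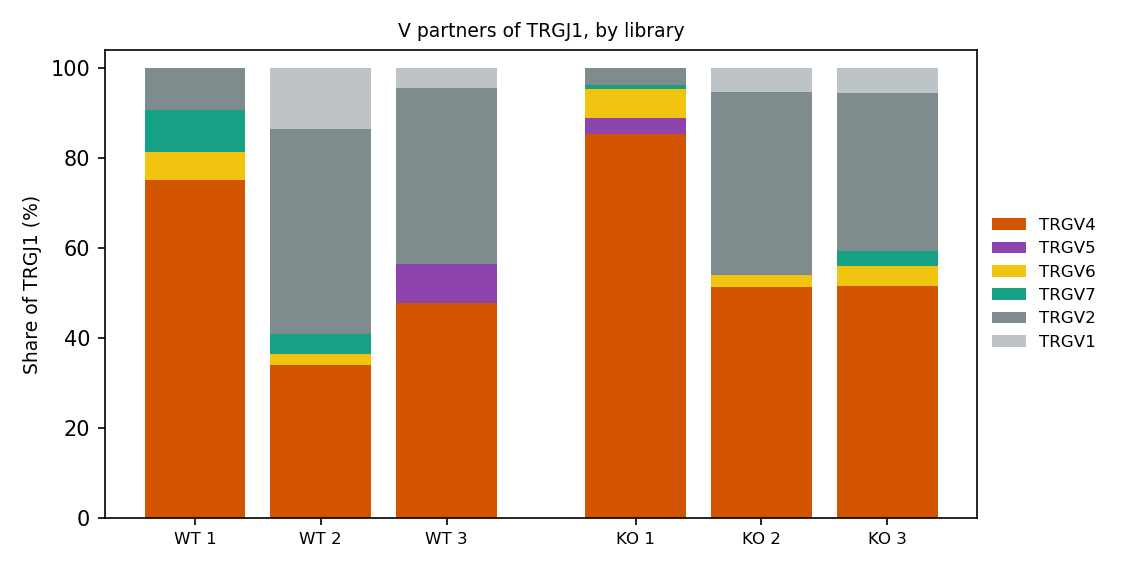
V segments joined to TRGJ1 in each Tcrg library, as percent of TRGJ1 (WT wild type, KO Satb1 knockout, numbers are replicates; each bar adds up to 100%). TRGV4 to TRGV7 make up 90.6% of the bar in WT 1 and 96.3% in KO 1, and between 40.9% and 59.3% in the other 4 libraries, where TRGV2 and TRGV1 fill the rest.

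The minor cassette partners of TRGJ1 were TRGV6, with 2.84% ± 3.16 of it in wild type and 4.51% ± 1.86 in the knockout, TRGV7, with 4.64% ± 4.69 and 1.40% ± 1.70, and TRGV5, with 2.90% ± 5.02 and 1.22% ± 2.12 (SD, n = 3 each). Their exact permutation p-values were 0.4, 0.4 and 1 (adjusted 0.927, 0.927 and 1), and for TRGV5 the difference turned to 1.22 percentage points without wild-type replicate 3. TRGV1 held between 0% and 13.6% of TRGJ1 and was at 0 in both libraries numbered 1. TRGV3 was not listed with TRGJ1 in any of the 6 libraries.

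All 4 cassette V segments together held 90.6%, 40.9% and 56.5% of TRGJ1 in wild-type replicates 1, 2 and 3 and 96.3%, 54.1% and 59.3% in knockout replicates 1, 2 and 3. In each genotype the library numbered 1 was above 90% and the other libraries were below 60% (means 62.7% ± 25.4 and 69.9% ± 23.0, SD, n = 3 each, exact permutation p = 0.6, adjusted p = 0.927). The labels do not say that equal numbers mark a shared day, litter or batch. The knockout minus wild-type difference of 7.22 percentage points turned to -5.99 without knockout replicate 1 and to -3.67 without wild-type replicate 2. It was 21.2 without wild-type replicate 1 and 7.98 without both libraries numbered 1. Taken between libraries of equal number, it was 5.71, 13.1 and 2.82 for numbers 1, 2 and 3.

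Of the 15 pairs that hold a cassette V or TRGJ1, 11 were above 0 in at least 1 library and 2 in all 6, namely TRGV4 with TRGJ1 and TRGV2 with TRGJ1. TRGV4 with TRGJ1 was the largest of them in 5 libraries: it held 15.1%, 13.3% and 10.9% of wild-type replicates 1, 2 and 3 and 20.9%, 13.9% and 14.6% of knockout replicates 1, 2 and 3. Only knockout replicate 1 lay above the wild-type range (means 13.1% ± 2.11 and 16.5% ± 3.86, SD, n = 3 each, limma log2 fold change 0.32 ± 0.47, SE, adjusted p = 0.898). TRGV2 with TRGJ1 held 1.89%, 17.7% and 8.91% of the wild-type libraries, where it was the largest in replicate 2, and 0.899%, 10.9% and 9.97% of the knockout libraries (limma log2 fold change -0.48 ± 1.19, SE, adjusted p = 0.898). Of 16 Tcrg pairs tested with limma 0 were called (0%) and 0 had an unadjusted p under 0.05, with a median log2 fold change of -0.15, and in 0 of them did the groups fail to overlap (0%).

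Across the 6 Tcrg libraries the segment whose share moved most like that of TRGV4 was TRGV6, and the reverse (Pearson r = 0.86). TRGV5 moved most like TRGV3 (r = 0.98), both having their highest share in wild-type replicate 3, TRGV7 most like TRGV6 (r = 0.39) and TRGJ1 most like TRGV7 (r = 0.33). These shares come from the same 6 libraries and sum to 100 within each, so the values describe these libraries only.

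The delta chain supplies the other subunit of the receptor, and it was measured in 6 separate Tcrd libraries, 3 of each genotype. TRDV4, the delta segment known to pair with Trgv5 and Trgv6 in fetal-type cells, held 0.160%, 0.146% and 0% of wild-type replicates 1, 2 and 3 and 0.320%, 0.541% and 0.241% of knockout replicates 1, 2 and 3. Every knockout library lay above every wild-type library, which held for 2 of the 13 Tcrd V segments tested (15.4%). Counting both directions, the groups did not overlap for 4 of 13 (30.8%). TRDV4 was not called (limma log2 fold change 2.35 ± 1.13 on the log2(percent + 0.0128) scale, SE, adjusted p = 0.423). The smallest Tcrd value above 0 was 0.0320%, 0.0486% and 0.0306% in wild-type replicates 1, 2 and 3. In knockout replicates 1, 2 and 3 it was 0.0128%, 0.0637% and 0.0803%. TRDV4 thus lay near that floor in wild type and in knockout replicate 3. TRDV5, known to pair with Trgv4, had a share of 10.2% ± 3.08 in wild type against 10.1% ± 3.62 in the knockout (SD, n = 3 each, limma adjusted p = 0.957). TRDV2-2, the most abundant delta segment and among those found with Trgv7, held 53.9% ± 3.54 and 65.6% ± 7.30 (SD, n = 3 each), without overlap and without a limma call (adjusted p = 0.556). Of the 13 Tcrd V segments 0 were called (0%), and 0 had an unadjusted p under 0.05.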

How the data were processed

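Thymocyte total RNA of 3 wild-type and 3 Satb1 knockout libraries per chain was amplified by 5′ RACE with a constant-region primer and sequenced on an Illumina HiSeq, per the labels' protocols. The labels do not say which gamma constant regions the primer matched. Reads were trimmed with fastp, per the submitters' processing notes; for the segment caller and genome build, the sources used here name none. The deposited values are in percent: each table gives the percent of a library's V–J assignments. The cells sum to 100, and depth is taken as unknown, although every Tcrg value is a whole multiple of its library's smallest value. Tcra and Tcrb libraries were not used.

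Features averaging 0.1% or more over the 6 libraries entered a limma fit (version 3.58.1, R 4.3.3) of log2(percent + 0.225) for Tcrg and log2(percent + 0.0128) for Tcrd, each constant being the lowest nonzero percentage found in that chain, with Benjamini-Hochberg adjustment per chain and kind, called at 0.05. The limma function was tested on simulated data, with a large change in a pair and less spread than TRGV5, TRGV6 and TRGV7 show here. That run does not measure how small a change could be called for these segments. Of 18 single values, 17 were compared by exact two-sided permutation over all arrangements of the libraries (20 for 3 against 3; fewer where a library lists the V segment at 0). All 5 members and every pair that holds a member and was above 0 in any library were to be named, with the listed other gamma segments, 3 delta V segments, and for each member the segment with the highest Pearson r. Members and lists were chosen with earlier results of these data known. Positions and sequences come from GENCODE M21 (GRCm38), and identities from Biopython 1.88 alignments. Python 3.11.15, numpy 2.4.6, pandas 2.3.3 and matplotlib 3.10.9 were used. Alternatives were other pseudocounts, filters of 0 and 1%, centred log-ratios, a replicate block, leaving out each library, counting each pair once, and a resolution limit. Equal replicate numbers were not taken as pairs. Residuals of equal numbers correlated over 0.1 for all 3 numbers in none of the 4 kinds of feature. In Tcrg V–J pairs r was 0.529, 0.375 and -0.385. This rule needs all 3 numbers at once, so a likeness of the libraries numbered 1 alone would not meet it. A batch shared by equal numbers was not tested.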

Additional observations from a re-analysis of the deposited data

How the results depend on the processing

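No segment or pair was called under any alternative run with limma (other pseudocounts, filters, centred log-ratios, each library left out, a replicate block), for Tcrg V, Tcrg J, Tcrg pairs or Tcrd V; the number at an unadjusted p under 0.05 was 0 or 1. With the replicate block the counts were likewise 0. Where every library had a value, the block leaves the difference between the genotypes unchanged, so its sign could not reverse. For TRGV6 joined to TRGJ1, with libraries left out, the difference between libraries of equal number was 0. For TRGV7 joined to TRGJ1 too few such pairs of libraries remained. The knockout minus wild-type difference kept its sign in every alternative computed for the share of TRGV4 to TRGV7 (3.04 to 6.82 percentage points with each library left out), and so did the log2 fold change of TRGV4 (0.27 to 0.54), TRGV6 (0.38 to 1.74) and TRGV7 (-1.95 to -0.27, with no value under the 1% filter).

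Counting each V–J pair once reversed 4 differences, in percentage points: TRGJ1 held by TRGV4 (-1.67), and the parts of the cassette held by TRGV4 (-0.159), by TRGV7 (0.0794) and by TRGV5 with TRGV6 (0.0794). Leaving out 1 library reversed others. The log2 fold change ranged from -1.28 to 0.77 for TRGV5 and from -0.16 to 0.31 for TRGJ1. In percentage points, the difference ranged from -4.24 to 5.17 for the TRGJ1 share, from -12.5 to 1.45 for cassette V segments joined to TRGJ1, from -12.5 to 0.371 for TRGV4 joined to TRGJ1, from -5.99 to 21.2 for TRGJ1 held by the cassette, from -0.806 to 21.8 for TRGJ1 held by TRGV4 and from -3.12 to 1.22 for TRGJ1 held by TRGV5. Of the cassette total it ranged from -8.78 to 1.22 for TRGV5 and from -5.21 to 2.52 for TRGV5 with TRGV6, and it was -0.140 to 3.30 for cassette V segments with other J segments. The cause was not tested. Without the libraries numbered 1 of both genotypes, an alternative chosen after seeing the data, 0 of 17 differences reversed. With pairs under 0.990% removed, 16 differences could be computed and 0 reversed; TRGV7 joined to TRGJ1 had too few libraries. Shares under 0.990% lie below the resolution of the coarsest library, wild-type replicate 3, so TRGV6 and TRGV7 at 0 there do not show absence.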

Other observations

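The low level of joins between cassettes in the 2 libraries numbered 1 was not shared by all such joins. TRGV2 was joined to TRGJ1 for 2.94% in wild-type replicate 1 and 1.45% in knockout replicate 1, against 13.4% to 26.7% in the other 4 libraries. TRGV1 with TRGJ1, a pair of which V and J lie on the same strand with the V beyond the J, was at 0 in both and between 0.990% and 5.31% of the library in the other 4. TRGV1 joined to TRGJ2, a pair that holds no segment of the cassette, was 7.41% of TRGV1 in wild-type replicate 1 but 26.8% in knockout replicate 1, within the 12.5% to 29.4% of the other 4 libraries. TRGV2 with TRGJ4 held 2.52% and 2.25% of the libraries numbered 1 and 0.935% to 2.65% of the others. Pairs in which V and J belong to a single cassette (TRGV4 to TRGV7 with TRGJ1, TRGV2 with TRGJ2, TRGV1 with TRGJ4) made up 93.7% and 91.7% of the libraries numbered 1 and 69.0% to 80.2% of the other 4. This contrast was chosen after the values were seen and was not tested.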
